A study of Mus musculus with 14 samples.

Results

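Killer cell lectin-like receptors (Klr genes) and C-type lectins (Clec genes) are related families, mostly of cell surface proteins that carry C-type lectin domains. The promoters described here were chosen by gene name, Klr followed by a letter or Clec followed by a digit, from a table of promoter DNA methylation. The rule also named Klra1 and Klra33, selected on their levels, which were highest in clone E. It found 67 rows, or 66 promoters of 59 genes once 2 identical Klra8 rows were counted together. Klr genes gave 32 promoters of 29 genes, and Clec genes 34 promoters of 30 genes. The whole table held 21965 promoters of 20343 genes, with identical rows counted once.

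The DNA came from 6 clonal lines, each grown from a single cell of the mouse mammary carcinoma line 4T1, with no treatment or engineered allele named in the labels. Clones E and T were labelled intravasating, able to enter blood vessels when 23 such lines were tested as a pool, and the labels mark I, K, L and P as lacking this capacity. Each clone had 1 deposited level per promoter, although the labels list 2 rounds of sequencing, so a group comparison set 2 lines against 4. The parental line was not analysed here. A level is a fraction, where 0 means that no cytosine was read as methylated and 1 that all were.

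Most Klr genes encode receptors of natural killer cells, lymphocytes that kill infected or transformed cells. The Klra (Ly49) receptors bind class I molecules of the major histocompatibility complex and either restrain or activate the killer cell. The Klrc, Klrd1 and Klrk1 products form the NKG2 and CD94 receptors, and the Klrb1 (NKR-P1) receptors bind lectins encoded by Clec2 genes. Many other Clec genes encode receptors of macrophages, dendritic cells and platelets that bind sugars of microbes or dying cells. Methylation of promoters with few CpG dinucleotides often differs between cell types, whereas promoters dense in CpG are mostly unmethylated.

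Clec2d, which encodes a ligand of NKR-P1 receptors, had the lowest mean level of the 66 promoters, 0.0280 ± 0.0127 (SD, n = 6 clones), and Klrg1, a receptor for E-cadherin, the highest, 0.823 ± 0.0290. The median of the members' mean levels was 0.487, against 0.328 over all promoters. Extremes were few among them. A mean level under 0.1 was found for 3 of the 66 promoters (4.55%) against 24.1% of all promoters, and a mean over 0.8 for 2 (3.03%) against 14.5%.

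To set the levels beside sequence, the 250 bases before the annotated start were taken from RefSeq (build GRCm38.p6), which held a promoter entry for 42 of the 59 genes. The deposited levels rest on promoter boundaries not given in the sources used here, which need not be these bases. The 35 genes with a single entry had a median of 2 CpG in this window, against 10 for the 12052 genes of the whole table with a single entry. A set of 6 promoters is shown 5′ to 3′ on the gene's strand, with each CpG in capitals. Klra1, at chr6:130386875-130387124 (minus strand), is one of the genes named in the rule and had 2 CpG. Klra17, at chr6:129876673-129876922 (minus strand), had 1 CpG and the next largest lead of clone E. Clec4d, at chr6:123261857-123262106 (plus strand), had none. Clec2d, at chr6:129180365-129180614 (plus strand), had 4 and was the least methylated member. The last pair, Clec2l at chr6:38662819-38663068 (plus strand) with 21 and Clec16a at chr16:10545089-10545338 (plus strand) with 15, were the CpG-dense promoters and lay at opposite ends of the methylation scale.
Klra1: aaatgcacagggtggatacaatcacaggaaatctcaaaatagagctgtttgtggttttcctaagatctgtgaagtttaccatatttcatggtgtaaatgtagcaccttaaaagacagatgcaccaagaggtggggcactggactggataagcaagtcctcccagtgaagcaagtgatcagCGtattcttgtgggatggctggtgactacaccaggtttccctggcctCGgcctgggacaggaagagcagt
Klra17: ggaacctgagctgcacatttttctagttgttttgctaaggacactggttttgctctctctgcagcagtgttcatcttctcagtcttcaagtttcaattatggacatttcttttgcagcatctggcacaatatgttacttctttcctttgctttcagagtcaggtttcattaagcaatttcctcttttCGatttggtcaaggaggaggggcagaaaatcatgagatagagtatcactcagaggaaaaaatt
Clec4d: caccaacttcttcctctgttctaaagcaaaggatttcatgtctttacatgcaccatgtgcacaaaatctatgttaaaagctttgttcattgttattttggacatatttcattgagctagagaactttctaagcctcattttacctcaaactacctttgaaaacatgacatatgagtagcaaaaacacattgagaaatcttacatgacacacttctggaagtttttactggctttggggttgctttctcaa
Clec2d: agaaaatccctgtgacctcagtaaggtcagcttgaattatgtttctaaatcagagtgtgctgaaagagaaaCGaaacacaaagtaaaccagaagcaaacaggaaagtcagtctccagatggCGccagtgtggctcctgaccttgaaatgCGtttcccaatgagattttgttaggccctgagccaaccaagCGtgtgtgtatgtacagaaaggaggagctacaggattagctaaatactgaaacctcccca
Clec2l: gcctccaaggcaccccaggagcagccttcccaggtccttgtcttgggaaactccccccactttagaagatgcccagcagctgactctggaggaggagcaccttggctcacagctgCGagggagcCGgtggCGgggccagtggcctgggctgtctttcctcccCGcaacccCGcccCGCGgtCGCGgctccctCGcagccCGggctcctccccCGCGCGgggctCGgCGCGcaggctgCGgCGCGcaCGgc
Clec16a: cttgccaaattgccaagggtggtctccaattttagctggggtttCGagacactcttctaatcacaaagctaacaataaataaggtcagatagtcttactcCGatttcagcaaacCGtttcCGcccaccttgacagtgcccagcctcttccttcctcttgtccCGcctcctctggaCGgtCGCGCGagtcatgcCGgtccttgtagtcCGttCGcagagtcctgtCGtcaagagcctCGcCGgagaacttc

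The CpG-dense pair differed widely in level. Clec16a, a broadly expressed gene linked to autophagy, was at 0.121 in clone E, 0.0768 in T, 0.0651 in I, 0.0769 in K, 0.0911 in L and 0.120 in P. Clec2l, a lectin gene of the nervous system, was at 0.823 in clone E, 0.786 in T, 0.852 in I, 0.806 in K, 0.782 in L and 0.837 in P. Clec16a thus ranged over 0.0560 and Clec2l over 0.0696, and the levels of the pair did not overlap in any clone. Clec2d, with 4 CpG, was as low as 0.0138 in clone L and no higher than 0.0497 in clone I. The window of Clec4d held no CpG and yet the gene's level ran from 0.340 in clone K to 0.562 in clone I. In all, 5 promoters had no CpG in the window and mean levels of 0.226 to 0.544. Which bases those levels cover was not tested.

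The Klra promoters had a lower median level than the other families and lay far apart between clones. Over the 16 promoters of 15 genes, the median of the mean levels was 0.226, from 0.128 for Klra8 and Klra21 to 0.647 for Klra5. In clone E the median over these promoters was 0.365, against 0.204 to 0.280 in the other clones. Of the 16, 8 were highest in clone E, 4 in T, 2 in I and 1 each in K and L. This contrast is the one the rule used, so it is given as a description.

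Klra33 and Klra1 led this pattern by choice. The Klra33 promoter was at 0.333 in clone E, 0.0909 in each of T, I and K, and 0.0833 in both L and P. Clone E was thus 0.242 above the next clone, and the others were nearly level. Exactly equal levels in several clones show that the value takes few steps, and the depth behind it is unknown. Klra1, which encodes the inhibitory receptor Ly49A, was at 0.444 in clone E, 0.195 in T, 0.184 in I, 0.225 in K, 0.161 in L and 0.143 in P. Here clone E was 0.219 above the next clone, and clone T lay within the range of the non-intravasating clones. Klra17, which encodes Ly49Q, a receptor of plasmacytoid dendritic cells, came next with a lead of 0.20. Its level was 0.549 in clone E and 0.156 in clone T, the lowest, with I at 0.329, K at 0.264, L at 0.258 and P at 0.349. After it the lead of clone E dropped to 0.135, for Klre1.

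**Figure D1:**
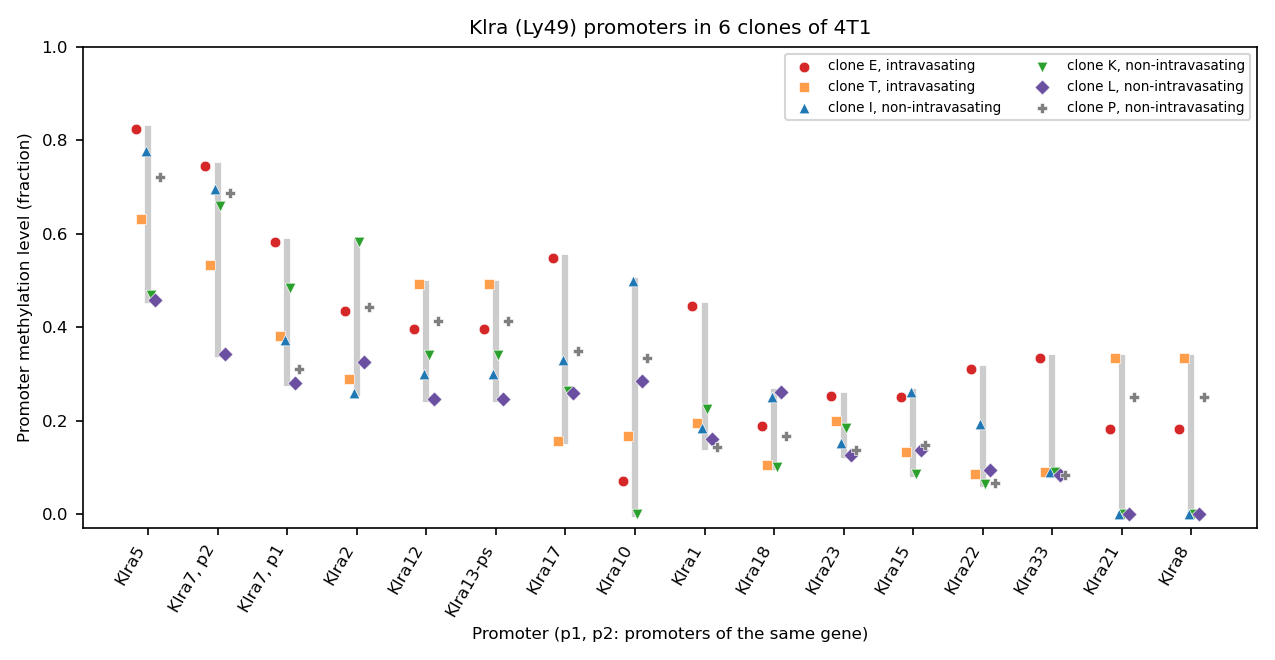
Promoter methylation level (fraction, vertical axis) of the 16 Klra promoters (horizontal axis, ordered by mean level). Each symbol is 1 clone and the grey bar spans the 6 clones. Clone E stands alone at the top for Klra33 (0.333), Klra1 (0.444) and Klra17 (0.549), while Klra10, Klra8 and Klra21 have clones at 0.

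Other Klra promoters separated the clones differently. Klra10 reached 0.50 in clone I and 0 in clone K, with E at 0.0714, T at 0.167, L at 0.286 and P at 0.333, the widest range of all members (0.50). Klra8, which encodes the activating receptor Ly49H, was at 0 in I, K and L, 0.182 in E, 0.25 in P and 0.333 in T. Klra21 had the same 6 levels, as did Klra12 and Klra13-ps between themselves (0.247 in clone L to 0.493 in clone T), so each pair cannot be told apart. Levels such as 0, 0.25, 0.333 and 0.50 are simple fractions, so Klra10, Klra8 and Klra21 may rest on few readings. The depth behind them is unknown. Klra5, which encodes Ly49E, was at 0.824 in E, 0.778 in I, 0.721 in P, 0.631 in T, 0.469 in K and 0.458 in L. The second of 2 Klra7 promoters was at 0.343 in clone L and at 0.532 to 0.746 in the others. The first was lowest in L too, at 0.280, and highest in E, at 0.582.

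The Klra genes are closely related to each other, and their number differs between mouse strains. 4T1 comes from a BALB/c background, while the RefSeq assembly is from C57BL/6J. Whether 4T1 carries each named Klra gene, Klra8 (Ly49H) among them, was not tested. The names Klra12, Klra15, Klra18 and Klra21 had no RefSeq match, and RefSeq lists Klra33 as a synonym of Klra4 and Klra22 as a synonym of Klra1. The Klra22 row nevertheless had levels of its own, 0.311 in clone E and 0.0635 to 0.192 in the rest. In the 250-base windows, Klra17 and Klra8 shared up to 77.4% of aligned positions and Klra17 and Klra7 up to 76.0%. Klra1 shared 43.0% to 49.5% with the other genes aligned, and 44.7% with Klra17. Reads from similar genes may be placed on the wrong gene or dropped, so the Klra levels are uncertain. The part this played in the values was not tested.

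All 10 promoters of the NKG2 and CD94 group had a range over the clones of at least 0.2. Klri1, an inhibitory receptor chain that pairs with Klre1, had the widest, 0.420. It was at 0.865 in clone K, 0.791 in I and 0.779 in E, then 0.678 in P, 0.510 in L and 0.446 in T. Its neighbour Klri2 was far lower, from 0.0455 in L to 0.395 in P. Klrc3, which encodes NKG2E, was at 0.808 in E and 0.774 in P and between 0.417 and 0.610 in the other clones. Klrd1, the CD94 gene whose product pairs with the NKG2 proteins, was at 0.816 in P, 0.684 in E, 0.639 in I, 0.618 in K, 0.613 in L and 0.493 in T. Klrc1, which encodes the inhibitory NKG2A, was highest in clone I at 0.596 and lowest in clone T at 0.288. Klre1 was at 0.696 in E and at 0.390 to 0.561 in the rest.

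Klrk1 encodes NKG2D, the activating receptor for stress-induced ligands on tumour cells, and had 2 promoters. The first was at 0.582 in clone K and at 0.309 to 0.394 in the other clones. The second was at 0.736 in K, 0.729 in E, 0.661 in P, 0.583 in L, 0.563 in I and 0.347 in T. Clone K was highest at both, but clone T lay apart at the second alone. Klrc2, which encodes the activating NKG2C, also had 2 rows, whose levels were the same in every clone but I. Its first promoter was at 0.326 in E, 0.240 in T, 0.217 in P, 0.160 in L, 0.132 in I and 0.0400 in K.

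**Figure D2:**
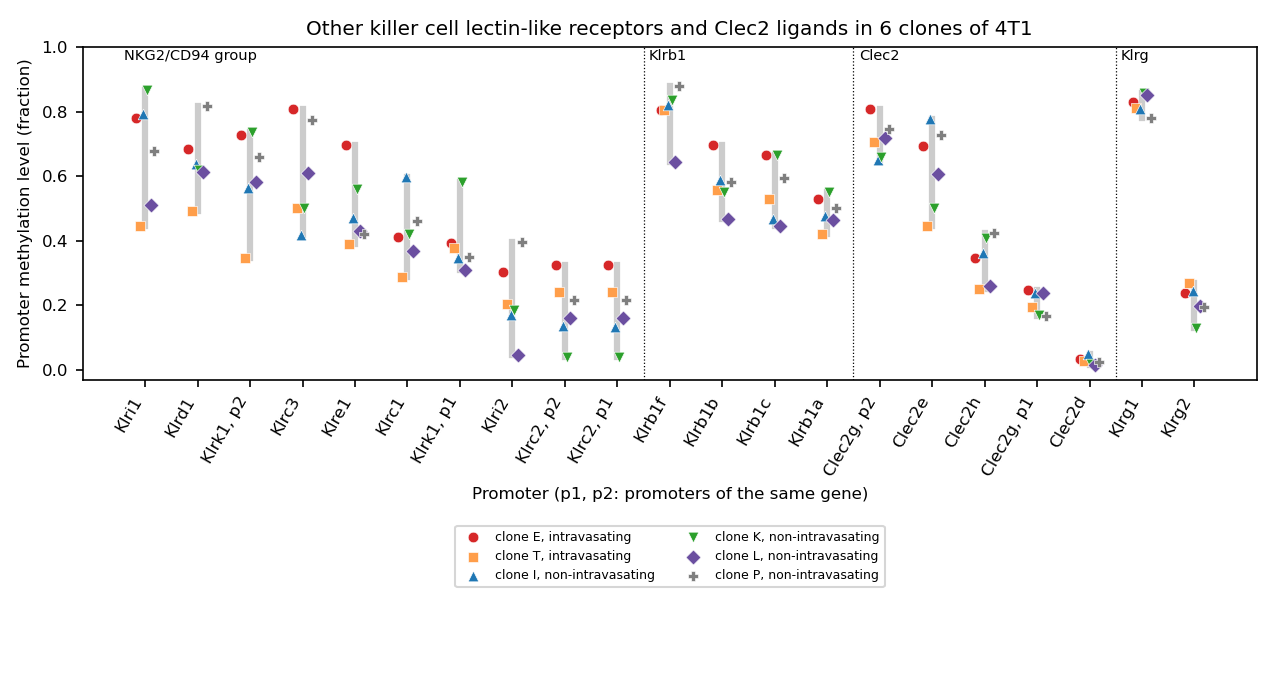
Promoter methylation level (fraction, vertical axis) of the NKG2 and CD94 group, the Klrb1 receptors, the Clec2 ligands and the Klrg genes (horizontal axis, dotted lines between families). Each symbol is 1 clone and the grey bar spans the 6 clones. The clones lie far apart in the NKG2 and CD94 group, such as 0.446 to 0.865 for Klri1, and close together for Clec2d and Klrg1.

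NKR-P1 receptor promoters were methylated at an intermediate to high level. They were lowest in clone L in 3 of 4 cases, and clone L was lowest at 35.9% of all promoters. Klrb1f was at 0.645 in clone L and 0.805 to 0.881 elsewhere. Klrb1b was at 0.469 in L, 0.552 to 0.589 in T, I, K and P, and 0.695 in E. Klrb1c was at 0.667 in both E and K and 0.447 in L, and Klrb1a between 0.420 and 0.552. Among their Clec2 ligands the levels were split: Clec2d was near 0 as described, Clec2h had a mean of 0.342 and Clec2e of 0.625. Clec2e ran from 0.444 in clone T to 0.776 in clone I, a range of 0.331. The 2 Clec2g promoters differed from each other in every clone, at 0.167 to 0.248 for the first and 0.651 to 0.807 for the second.

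The Clec1, Clec7, Clec9 and Clec12 group had clone L lowest at all 7 promoters, against 35.9% of all promoters in the table. Clec9a, a dendritic cell receptor for dead cells, was at 0.346 in L and 0.350 in T against 0.470 in P, 0.558 in E, 0.583 in K and 0.60 in I. Clec12a, an inhibitory myeloid receptor, ran from 0.451 in L to 0.739 in P. Clec1b, a platelet receptor, ran from 0.466 in L to 0.677 in P, and Clec7a (Dectin-1), the receptor for fungal beta-glucan, from 0.615 in L to 0.764 in P. The 2 Clec12b promoters were at 0.438 and 0.488 in clone L and above it in all other clones, with 0.536 and 0.588 in clone T as the next lowest.

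In the Clec4 cluster, receptors of macrophages and dendritic cells, levels fell into a low and a middle set. Clec4b2 (mean 0.0750), Clec4b1 (0.132), both Clec4a2 promoters (0.187 and 0.127) and Clec4n, the Dectin-2 gene (0.211), were low. Clec4a1 (0.564), Clec4a4 (0.621) and both Clec4a3 promoters (0.554 and 0.559) were higher, as were Clec4d (0.448) and Clec4e, the Mincle gene (0.416). The low set was consecutive when the member genes were put in RefSeq order on chromosome 6. Clec4e ran from 0.313 in clone L to 0.536 in clone E, with the others between 0.399 and 0.433.

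Members outside these clusters varied less. Clec18a had the smallest SD of all members, 0.698 ± 0.00678 (SD, n = 6 clones). Clec5a, Clec11a and Clec14a had means of 0.718, 0.779 and 0.712. Clec4g, a lectin of liver endothelium, was the exception, at 0.592 in clone K and 0.293 to 0.384 elsewhere, and Clec10a, a macrophage lectin, was at 0.482 in clone L and 0.598 to 0.764 elsewhere. Both were singled out after their values were seen. Klrg2 was at 0.129 in clone K to 0.270 in clone T.

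RefSeq placed 45 of the 53 genes matched by symbol on chromosome 6. Of these, 30 genes with 35 promoters lay in the natural killer gene complex and 10 genes with 12 promoters in the Clec4 cluster with Klrg1. Klra23 was left out of the order because the position listed for it in RefSeq lies outside both clusters. The order holds only members matched by symbol, so other genes may lie between consecutive ones. Consecutive members could differ sharply: Clec2d (0.0280) came between Clec2e (0.625) and Clec12a (0.571), and Klra8 (0.128) after Klra5 (0.647).

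**Figure D3:**
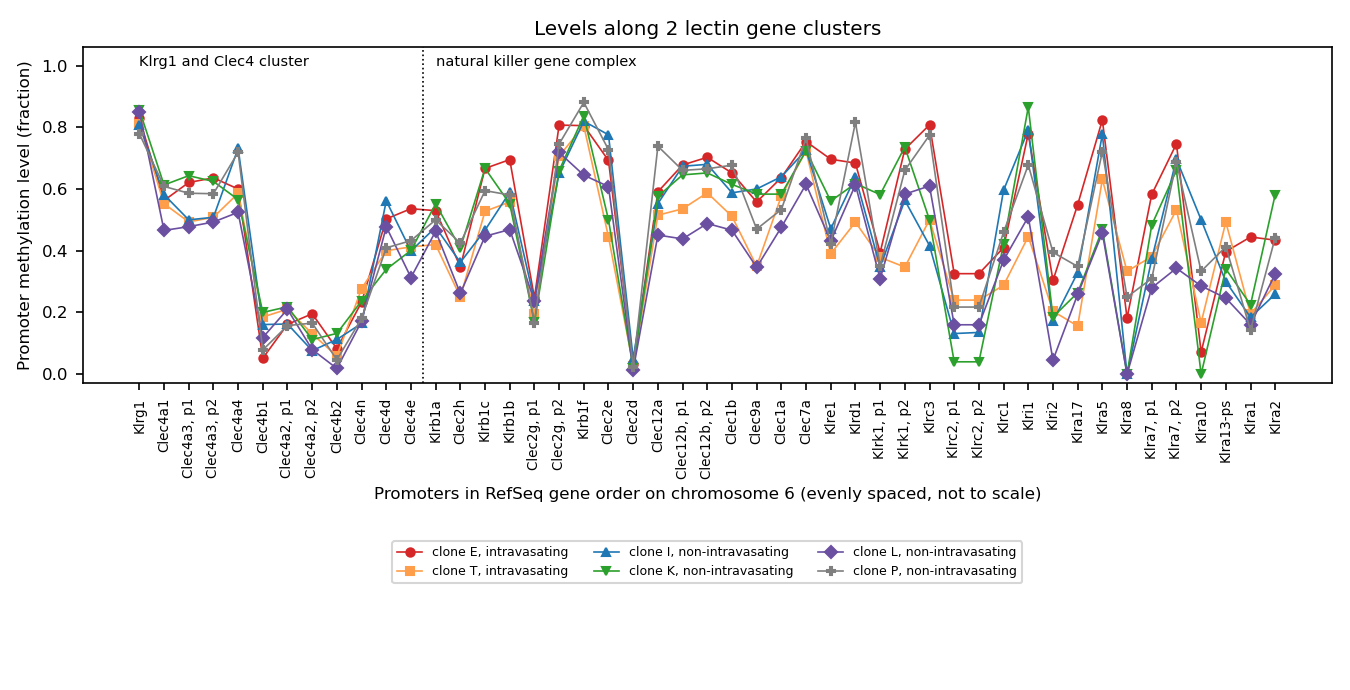
Promoter methylation level (fraction, vertical axis) in the 6 clones along the Clec4 cluster and the natural killer gene complex of chromosome 6. Only member promoters are shown, in RefSeq gene order and evenly spaced. Each line is 1 clone. Levels drop together at Clec2d in all clones (0.0138 to 0.0497), and from Klre1 to Klri2 every promoter has clones at least 0.2 apart.

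The spread between clones was then set beside that of all promoters. A range of at least 0.2 was found for 37 of the 66 members (56.1%), against a background of 10.6% of all promoters. Klra1 and Klra33, whose difference chose them, are among the 37, and 35 of the 64 others (54.7%) had such a range. Promoters near 0 or 1 have little room to vary, so the share was also taken at mean levels of 0.1 to 0.9, where it was 37 of 63 members (58.7%) against 14.6%. By family the count was 13 of 16 Klra promoters, 10 of 10 in the NKG2 and CD94 group, 3 of 4 Klrb1, 5 of 7 in the Clec1, Clec7, Clec9 and Clec12 group, 3 of 11 in the Clec4 cluster, 1 of 5 Clec2, 0 of 2 Klrg and 2 of 11 other Clec. Leaving out clone E, the clone the rule used, gave 26 of 66 members (39.4%) against 9.33% of all promoters.

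CpG density moved with this spread. With 0 to 2 CpG in the 250-base window and Klra1 set aside, 14 of 22 member promoters (63.6%) had a range of at least 0.2, against 33.3% of all promoters with as few. With 3 to 5 CpG the counts were 6 of 13 (46.2%) against 14.6%. Klrg2 with 9 CpG and the CpG-dense Clec16a and Clec2l had ranges of 0.141, 0.0560 and 0.0696. Fewer CpG give fewer readings per level, the read depth is unknown, and the part of either in the spread was not tested.

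**Figure D4:**
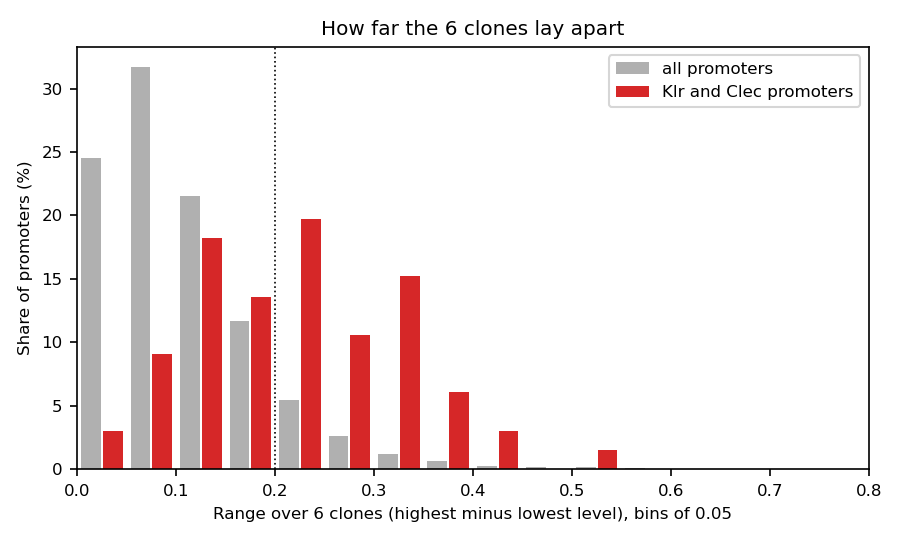
Share of promoters (%, vertical axis) by the range of the level over the 6 clones (highest minus lowest, horizontal axis, bins of 0.05), for all 21965 promoters in grey and the 66 Klr and Clec promoters in red. To the right of the dotted line at 0.2 lie 56.1% of the members and 10.6% of all promoters.

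Clones took the extreme positions unevenly. Clone L was lowest at 29 of 66 members (43.9%), against 35.9% of all promoters, and clone T at 13 (19.7%) against 24.6%. Clone E was highest at 24 members (36.4%) against 18.8% of all promoters, and since the rule used this contrast the share is given without a reading. The median level over the members was 0.560 in E, 0.526 in K, 0.488 in I, 0.465 in P, 0.416 in T and 0.40 in L. Over all promoters the medians were 0.342, 0.333, 0.352, 0.339, 0.303 and 0.296 in the same order of clones. Clones T and L were thus low at the members and over the whole table.

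The comparison stated in the study design, intravasating against non-intravasating clones, called no member. It was tested by limma over all 21965 promoters, with a call at a Benjamini-Hochberg adjusted p under 0.05, and 0.00911% of all promoters were called. Setting aside Klra1 and Klra33, 5 of 64 members (7.81%) had an unadjusted p under 0.05, against 3.93% of all promoters. These 5 were Klrc2 with 2 nearly equal rows, Klra23, and Klra21 and Klra8 with the same levels, which leaves 3 separate sets of levels. All 5 were higher in the intravasating clones. P-values measure the spread between these clones, each with 1 value.

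At the first Klrc2 promoter, clones E and T averaged 0.283 ± 0.0605 (SD, n = 2), and clones I, K, L and P averaged 0.137 ± 0.0740 (SD, n = 4). The difference was 0.146 ± 0.0474 (SE, limma unadjusted p = 0.0138, adjusted p = 1.00), and clone T lay 0.0226 above the nearest non-intravasating clone, P. Klra23 was at 0.254 in E and 0.20 in T against 0.184 in K, 0.152 in I, 0.138 in P and 0.127 in L. Its difference was 0.0767 ± 0.0273 (SE, limma unadjusted p = 0.0210, adjusted p = 1.00), with a gap of 0.0163 between the groups. Klra21 and Klra8 differed by 0.195 ± 0.0722 (SE, limma unadjusted p = 0.0249, adjusted p = 1.00), and the groups overlapped, since clone P at 0.25 lay above clone E at 0.182. The levels of Klra21 and Klra8 may rest on few readings. Those of Klrc2 may as well, since 0.0400 in K, 0.160 in L and 0.240 in T are also simple fractions. Depth is unknown for all of these promoters, Klra23 included, so whether the gaps at Klrc2 and Klra23 exceed 1 reading is unknown. The groups did not overlap at 3 of 66 members (4.55%), the 2 Klrc2 rows and Klra23, against 11.2% of all promoters.

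Counts of promoters higher in the intravasating clones moved with the clones included. Of the 14 Klra promoters other than Klra1 and Klra33, 11 had a higher mean in the intravasating clones, with a median difference of 0.0855, against 42.4% of all promoters higher and a median of -0.00424. Without clone E, 7 of the 14 were higher and the median difference was 0.000538, against 32.7% of all promoters higher. Without clone T, 12 of the 14 were higher, against 55.0% of all promoters. For the NKG2 and CD94 group, 5 of 10 promoters were higher, with 3 of 10 without clone E, 8 of 10 without clone T and 5 of 10 without clone L. Clec promoters were higher in 18 of 34 cases, in 9 without clone E, in 26 without clone T and in 13 without clone L, where 34.2% of all promoters were higher. Klrc2, Klra23, Klra21 and Klra8, picked by this same contrast, stayed higher in the intravasating group without clone E or without clone T. At Klrc2 and Klra23 both clones lay above every non-intravasating clone, so leaving out either could not turn the sign. For these genes the result is a description only. The widest split between clones E and T among the 66 promoters was that of Klra17, 0.549 against 0.156.

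**Figure D5:**
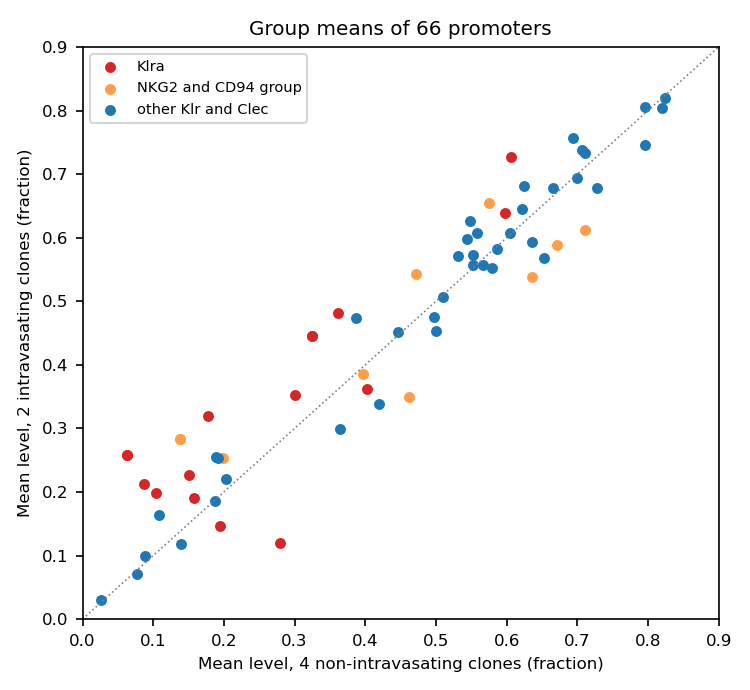
Mean promoter methylation level (fraction) of the 2 intravasating clones (vertical axis) against that of the 4 non-intravasating clones (horizontal axis). Each point is 1 of the 66 promoters and the dotted line marks equal levels. Of the Klra promoters apart from Klra1 and Klra33, 11 of 14 lie above the line, a count that drops to 7 without clone E.

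Partners of these receptors gave no call by limma either. From a fixed list of 34 ligand and signalling genes, 31 were found, with 34 promoters and a median level of 0.503. An unadjusted p under 0.05 by limma was found at 0 of these promoters, against 3.93% of all promoters. Of the 34 promoters, 9 were higher in the intravasating clones, against 42.4% of all promoters. H2-T23, which encodes the ligand of NKG2A, was at 0.0602 ± 0.0102 (SD, n = 6 clones), and the class I genes H2-K1 and H2-D1 at 0.209 and 0.365. The lowest were 1 promoter each of Pik3r1 (0.0129) and Vav3 (0.0188), and Vav2 (0.0314), all signalling genes used in many cell types. The highest were Fcer1g (0.914), an adaptor of activating receptors in blood cells, the second Pik3r1 promoter (0.896) and Lat (0.890), a T cell adaptor. The adaptors Tyrobp and Hcst, which pair with activating Klra receptors and NKG2D, were at 0.570 and 0.803. Raet1b and Raet1c, NKG2D ligand genes, had identical levels and cannot be told apart.

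A second fixed list held other lectins and genes of the natural killer gene complex. Of 17 genes 15 were found, with 15 promoters, a median of 0.446 and 0 calls. Of these promoters 10 were higher in the intravasating clones, against 42.4% of all promoters. Cd209a, a dendritic cell lectin gene, averaged 0.258 in clones E and T and 0.158 in the others. It was the 1 promoter of the list with an unadjusted p under 0.05 (limma unadjusted p = 0.00861, adjusted p = 1.00). Such a p was found at 3.93% of all promoters. The range was at least 0.2 at 5 of the 15 promoters of the list, against 10.6% of all promoters. Their lowest were Gabarapl1 (0.0868), Magohb (0.129) and Cd209e (0.154), and their highest Cd209c (0.843), Mrc1 (0.724) and Sele (0.638).

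Epithelial marker promoters, the labelled cell type being a carcinoma, had lower levels than leukocyte markers. The 6 epithelial marker promoters had a median of 0.179, with Cdh1 at 0.0856, Krt8 at 0.139 and Epcam at 0.172, and Krt5 at 0.643. The 6 leukocyte markers had a median of 0.676, with Ptprc at 0.790 and Ncr1, a natural killer cell gene, at 0.231. In the intravasating clones 2 of 6 epithelial and 0 of 6 leukocyte marker promoters were higher, against 42.4% of all promoters. With so few promoters the counts are given without a reading. Neither list had a call by limma. Each had 1 unadjusted p under 0.05, against 3.93% of all promoters, and expression was not analysed here.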

How the data were processed

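Genomic DNA was sonicated, bisulfite converted and sequenced as 76 nt paired-end reads, per the labels' protocols. The authors deposited each promoter's methylation as a fraction from 0 to 1, with 1 column per clone. The submitters' processing notes name mm10, bedtools and DESeq without a role. Aligner, promoter boundaries, averaging and the merging of rounds were not given in the sources used here. No counts or coverage came with the levels, so depth is unknown, and no coverage minimum or counting interval could be given. A second table, of hypomethylated regions, was not used because its build was not established.

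Rows with the same gene and levels were counted once. The group comparison used limma 3.58.1 under R 4.3.3, with a mean trend in eBayes and Benjamini-Hochberg adjustment over all 21965 promoters. On simulated levels of those promoters with 200 changed, it recovered 0% at a difference of 0.1, 29.5% at 0.2 and 91% at 0.4. The changed promoters were drawn from across all promoters, whose median range over the clones was 0.0894, against 0.221 for the members. With 200 changed, the adjusted threshold is also easier to reach than with few. Recovery for the members was not tested. Members and gene lists were chosen with earlier results of these data known, and Klra1 and Klra33 by their levels. Genes were named by rule: these 2, the 12 widest ranges, the 5 lowest and 5 highest means, any call or unadjusted p under 0.05, genes with several promoters or shared levels, and the 3 ends of the partner lists. Others are named to show their family. CpG was counted in RefSeq sequences with Python 3.11.15, and windows were aligned with Biopython 1.88.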

Additional observations from a re-analysis of the deposited data

Results flagged for a closer look

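Among the 4 non-intravasating clones, the level of 1 clone stood far from the other 3 at 9 of the 66 members by Dixon's test (critical value 0.829). Chance flags about 1 in 20 groups of normally distributed values, and levels tied at 0 are not such values. Klra8 and Klra21 share their levels. The share of all promoters flagged was not taken, so the count is given without a reading. Clone L was the low clone at Clec10a (0.482 against 0.666 to 0.677), at both Clec12b promoters (0.438 against 0.646 to 0.674, and 0.488 against 0.652 to 0.680) and at the second Klra7 promoter (0.343 against 0.660 to 0.697). Clone K was the high clone at Clec4g (0.592 against 0.355 to 0.366) and at the first Klrk1 promoter (0.582 against 0.309 to 0.350). Clone P was the high clone at Klrd1 (0.816 against 0.613 to 0.639) and at Klra8 and Klra21 (0.25 against 0 in the others).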

How the results depend on the processing

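No member other than Klra1 and Klra33 was called by limma under any alternative listed here, including an adjusted p under 0.10. The count of all promoters called was 0 without the mean trend, 5 after centring each clone, 25 when promoters ranging over less than 0.1 were dropped, and 0 to 4 when each clone was left out (0 without clone L, 4 without clone E). Of the 64 members other than Klra1 and Klra33, the count with an unadjusted p under 0.05 by limma was 5. It was 1 on the logit scale and 9 after centring. With a non-intravasating clone left out it was 3 to 8 (3 without clone I or L, 8 without clone P). Shares over all promoters were not taken for these alternatives, so the changes are given without a reading. Leaving out clone E or T left 1 intravasating clone, assumed to vary like the others. Over all 66 members, those with a range of at least 0.1 numbered 58 and of at least 0.3 numbered 17. By bin, ranges of 0.1 to 0.15 held 18.2% of the members against 21.5% of all promoters. Ranges of 0.3 to 0.35 held 15.2% against 1.22%. As alternatives chosen after seeing the data, leaving out the Klra promoters gave 24 of 50 members (48%) with a range of at least 0.2, against 10.6% of all promoters. It moved the median level to 0.560.

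The difference of group means kept its sign at 16 of 37 named promoters under centring and each clone left out. It turned at the other 21, and the ranges with each clone left out were: Clec12b (first) -0.0687 to 0.0733, Clec12b (second) -0.0338 to 0.0813, Clec16a -0.0115 to 0.0328, Clec2d -0.000180 to 0.0118, Clec2e -0.208 to 0.0397, Clec2g (first) -0.00816 to 0.0447, Clec2l -0.0336 to 0.00366, Clec4a2 (first) -0.0258 to 0.0235, Clec4a3 (first) -0.0585 to 0.0692, Clec4a3 (second) -0.0441 to 0.0835, Clec4b2 -0.0267 to 0.0112, Clec5a -0.0197 to 0.0646, Klra17 -0.144 to 0.249, Klra7 (second) -0.0648 to 0.149, Klrb1f -0.0407 to 0.0379, Klrc3 -0.0752 to 0.233, Klrd1 -0.179 to 0.0125, Klrg1 -0.0180 to 0.00779, Klri1 -0.265 to 0.0684, Klrk1 (first) -0.0406 to 0.0503, Klrk1 (second) -0.289 to 0.0929. After centring it also turned at Clec4a2 (first, 0.00629), Clec4b2 (0.000428) and Klrg1 (0.00421). No paired analysis was possible because each clone has 1 column and the rounds are not given separately. How far depth limits each level is unknown.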
